A study of Arabidopsis thaliana with 8 samples.

Results

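The basal state of the per1 mutant was described from the 4 root arrays of plants that had phosphate throughout, 2 arrays of per1 and 2 of the wild type Col-0, out of 8 arrays in the series. The members were taken by their labels, the mutant in control medium against Columbia in control medium, and the comparison was made over all 22746 probesets left after the array's control probesets were set aside. The other 4 arrays, of both genotypes without phosphate, served to estimate the spread of each probeset and to set the same genotype difference beside it in the other medium.

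The series asked about early changes in Arabidopsis thaliana roots after phosphate is withdrawn. The plants were wild type of ecotype Col-0 or the per1 mutant in the same ecotype. All were raised on agar with control medium for 10 days and then moved for 10 h either to control medium again or to medium free of phosphate (Pi-free). The groups used here were therefore Col-0 in control medium and per1 in control medium, both of which went through the transfer itself, and each had 2 arrays that the labels call biological replicates. The labels do not say how many plants were pooled for an array.

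In the literature per1 is a mutant of the ubiquitin-specific protease UBP14, and its root hairs do not lengthen when phosphate is short. Ubiquitin is attached to proteins in chains that mark them for the proteasome, and deubiquitinases of this kind take free chains apart so that ubiquitin can be used again. Root hairs are outgrowths of single epidermal cells, and their growth depends on extensins, expansins and other proteins of the cell wall.

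The values were probeset signals on Affymetrix ATH1 arrays, in which a probeset is a group of short probes for 1 transcript. All differences below are per1 minus Col-0 on the scale log2(signal + 16), with the standard error (SE) from limma, and a probeset was taken as past the test at a Benjamini-Hochberg adjusted p under 0.05. The Spearman correlation between the arrays of a group was 0.981 for Col-0 and 0.978 for per1. UBP14 had 0 named probesets and was not analysed here, so the genotype labels were not checked through the mutated gene. The root gene PYK10, an abundant beta-glucosidase of root cells, had signals of 24141.3 and 22942.6 in Col-0 and 21751.3 and 24224.9 in per1. Markers of endodermis, stele and root cap had no named probeset. A free-text description on the samples speaks of iron media and for 1 of the 4 arrays, Col-0 replicate 2, of iron deficiency, which disagrees with its title. The 25S ribosomal RNA control probeset read 47 and 117.2 in Col-0 and 99.7 and 203.5 in per1, and its part in the results was not tested.

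With phosphate supplied, few probesets passed the test between the genotypes. With 2 arrays in each group, a probeset that did not pass was not shown to be equal. Only 13 probesets passed the test, which is 0.0572% of those tested, with 5 higher in per1 (0.022%) and 8 lower (0.0352%). Their differences were between 0.81 and 2.59 in size. Of the 13, 5 stood for a single named gene, 1 for several genes and 7 for no named gene. At an unadjusted p under 0.05 there were 1001 probesets higher (4.4%) and 1337 lower (5.88%), 2338 in all (10.3%), where 1137 would be expected by chance. The median difference over all probesets was -0.02. The count rested on each of several arrays. It fell to 2 without Col-0 control replicate 1, to 1 without Col-0 control replicate 2, to 3 without per1 control replicate 1 and to 1 without per1 control replicate 2. It was 3 without either of the per1 Pi-free arrays.

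**Figure D1:**
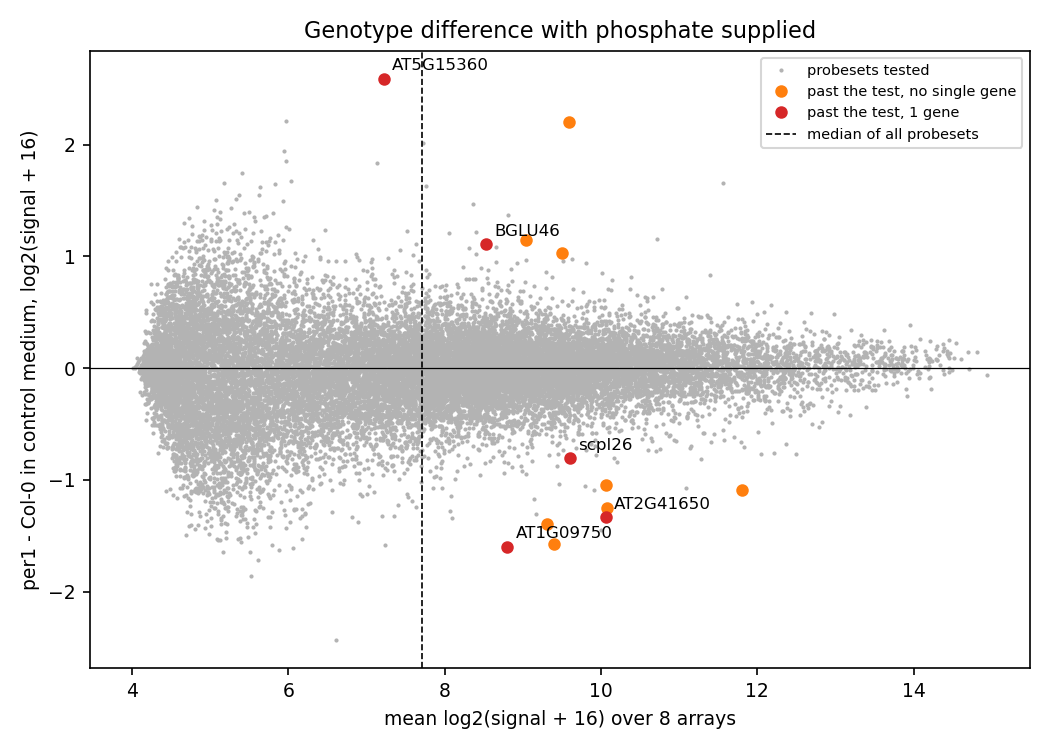
Difference between per1 and Col-0 in control medium on the log2(signal + 16) scale (vertical axis) against the mean log2(signal + 16) over 8 arrays (horizontal axis), 1 point per probeset. The 13 probesets past the test are coloured, 5 of them with a single gene named beside the point, and 12 of the 13 lie to the right of the dashed median of all probesets.

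Large differences were mostly seen among dim probesets. Among the 11373 probesets above the median signal, 14 were higher and 19 lower by over 1 with arrays of the genotypes that did not overlap. Among those at or under the median there were 126 higher and 259 lower. Of the 13 probesets past the test, 12 were above the median signal. The exception was AT5G15360.

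The lower group past the test held 3 named genes, and 2 of them encode proteases or protease-like enzymes. AT1G09750, an aspartyl protease, had signals of 817.8 and 833.1 in Col-0 and 271.8 and 252.2 in per1. Its mean signal was 3.15-fold lower in per1, a difference of -1.60 ± 0.17 with a limma adjusted p of 0.019. The serine carboxypeptidase-like gene scpl26 had signals of 1057.6 and 1045.0 in Col-0 and 591.6 and 595.4 in per1. It fell by 0.81 ± 0.10, with a limma adjusted p of 0.032. The arrays of the genotypes were far apart for both genes, and the replicates within a genotype were close.

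The last of the lower genes, AT2G41650, had signals of 1811.5 and 1608.0 in Col-0 and 715.0 and 625.6 in per1. Its difference was -1.33 ± 0.16, with a limma adjusted p of 0.026. Both per1 arrays lay under both Col-0 arrays for this gene.

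The higher group past the test held 2 named genes. BGLU46, a beta-glucosidase known to act on glucosides of lignin precursors, had signals of 220.4 and 255.3 in Col-0 and 537.3 and 522.5 in per1. Its mean signal was 2.23-fold higher in per1, a difference of 1.11 ± 0.14 with a limma adjusted p of 0.032. AT5G15360 had the largest difference of the 13, at 2.59 ± 0.33 with a limma adjusted p of 0.032, and signals of 65.5 and 32.3 in Col-0 against 406.2 and 321.4 in per1. The Col-0 signals of AT5G15360 were low and spread, whereas both per1 signals stood above the median of all probesets.

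All 5 named genes kept their direction in every fit that left out 1 of the 8 arrays, which arrays without overlap fix in advance. They did not keep their place past the test. AT1G09750 passed in 4 of those 8 fits, with limma adjusted p from 0.020 to 0.24. AT2G41650 and AT5G15360 passed in 2 each, and BGLU46 and scpl26 in 1 each, with the highest limma adjusted p at 0.34. For all 5, the fits in which 1 of the 4 control-medium arrays was left out gave no pass.

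**Figure D2:**
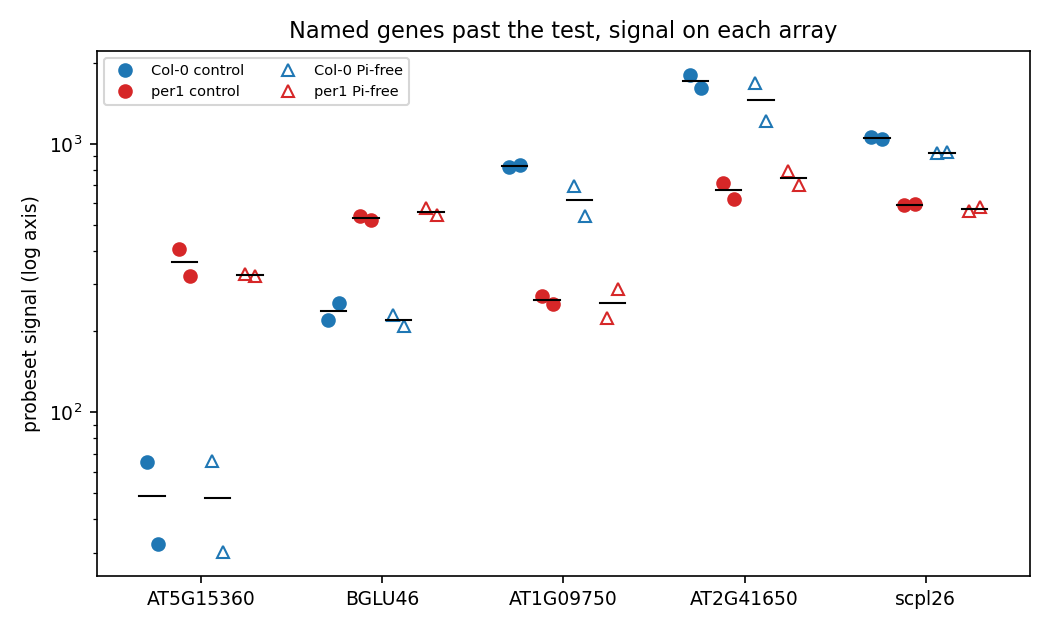
Probeset signal on a log axis for the 5 named genes past the test, 1 point per array, with filled circles for control medium, open triangles for Pi-free medium and a short line at the mean of the 2 arrays. The per1 arrays (red) lie above the Col-0 arrays (blue) for AT5G15360 and BGLU46 and under them for AT1G09750, AT2G41650 and scpl26 in both media.

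The same genotype difference measured on the other 4 arrays gave like values for these genes. In Pi-free medium the differences were -1.21 for AT1G09750, -0.93 for AT2G41650, -0.69 for scpl26, 1.28 for BGLU46 and 2.47 for AT5G15360. Of the 5, only BGLU46 passed the test in that medium, with a limma adjusted p of 0.049, where 7 probesets (0.0308%) passed in all. That count was 0 in limma without any 1 of the 8 arrays, and between 1580 and 3620 probesets then had an unadjusted p under 0.05. With all arrays it was 2431 (10.7%). Of the 13 probesets past the test in control medium, 12 had the same direction without overlap of the arrays in Pi-free medium, where 20.5% of all probesets were higher and 19.8% lower without overlap, and 4 passed in both media.

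The exception was the unnamed probeset 267083_at, chosen after its values were seen. In control medium it read 147.9 and 114.2 in Col-0 and 692.0 and 626.1 in per1, which is 5.03-fold higher in the mutant, with a difference of 2.21 ± 0.14 and a limma adjusted p of 0.000669. In Pi-free medium it read 2041.5 and 2344.6 in Col-0 and 1579.8 and 1605.8 in per1, with the mutant lower by 0.45 on the log2 scale and a limma adjusted p of 0.29. The change of the genotype difference between media was -2.66 ± 0.20, with a limma adjusted p of 0.0029. It passed the control-medium test in all 8 fits that left out 1 array. Another unnamed probeset, 263319_at, was higher in per1 by 1.03 ± 0.11 with phosphate, with a limma adjusted p of 0.020. Without phosphate it read 528.0 and 487.9 in Col-0 and 1102.8 and 966.7 in per1, with a limma adjusted p of 0.049. On the lower side, 246330_at read 950.3 and 1046.3 in Col-0 and 404.1 and 337.9 in per1. Its difference was -1.39 ± 0.13 with phosphate and -1.07 without it, with limma adjusted p of 0.012 and 0.049.

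Beyond the genes past the test, the 15 higher and 15 lower named genes with the smallest p were taken among those above the median signal whose arrays did not overlap. Of all probesets, 19.1% were higher in per1 without overlap and 22.3% lower. Among the 15 higher genes 1 passed, and among the 15 lower genes 3 passed. Their limma adjusted p ran up to 0.14. The other 26 are given with their values and did not pass over all probesets. With p-values adjusted only among probesets above the median signal, from which they were taken, 22 of the 26 had a limma adjusted p under 0.05. The 4 that did not were Hsp70-2, AT3G60910, AT5G60460 and AT4G23470. The 26 were chosen by the smallest p in this same comparison, so the count of 22 is no support for them. AT1G30760 was above the median signal only through per1, as all its Col-0 signals were under that median. In control medium both Col-0 signals of AT5G53010, 187.1 and 142.9, were under it too. So were both per1 signals of AT2G21195 (170.8 and 148.0) and of AT1G67910 (163.5 and 138.9). The place of these genes above the median thus rested on the genotype in which they were high.

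Among the higher genes that did not pass, the highest signals belonged to AT4G33720, a secreted protein of the CAP family that also holds pathogenesis-related protein 1. It read 2282.8 and 1076.1 in Col-0 and 5715.9 and 4345.9 in per1, a difference of 1.66 ± 0.28 with a limma adjusted p of 0.11. AT1G30760, of the berberine-bridge-enzyme family of oxidases, read 67.0 and 117.9 in Col-0 and 360.0 and 466.5 in per1, a difference of 2.01 ± 0.30 with a limma adjusted p of 0.077. The 2 Col-0 arrays differed widely for both genes, and all per1 arrays lay above them, as the rule of choice requires.

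The signals of the next 4 genes were also apart between the genotypes, by the same rule of choice. AT5G53010, annotated as a calcium-transporting ATPase, stood at 1.47 ± 0.28, and AT5G57580, a calmodulin-binding protein, at 0.89 ± 0.16. Hsp70-2, a cytosolic chaperone, read 794.6 and 742.3 in Col-0 and 1192.7 and 1174.5 in per1, a difference of 0.61 ± 0.10. AT5G65530, a receptor-like cytoplasmic kinase, stood at 0.71 ± 0.13. The limma adjusted p of these 4 genes lay between 0.086 and 0.14.

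The remaining higher genes are given with their differences. AT5G12420, of the wax ester synthase family, read 989.3 and 1166.2 in Col-0 and 2519.5 and 2307.0 in per1, a difference of 1.15 ± 0.19. AT4G40080, an ENTH/ANTH-domain protein of the kind that binds membranes in vesicle formation, stood at 1.09 ± 0.19. AT2G29210, a PWI-domain splicing factor, stood at 0.85 ± 0.13, and AT1G67340, a MYND zinc-finger protein, at 0.86 ± 0.13. AT2G41730 at 1.37 ± 0.20, AT5G26270 at 0.91 ± 0.17, the WD-40 protein AT5G43930 at 0.68 ± 0.12 and AT1G72500, similar to an inter-alpha-trypsin inhibitor heavy chain, at 0.71 ± 0.10 completed the 15.

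Among the lower genes that did not pass, 3 encode enzymes that act on carbohydrates or the wall. GH9B13, an endoglucanase of glycosyl hydrolase family 9, read 3104.3 and 3671.3 in Col-0 and 1979.9 and 1861.7 in per1, a difference of -0.81 ± 0.13 with a limma adjusted p of 0.083. TBL36, of a family that acetylates wall polysaccharides, read 1867.3 and 2048.6 in Col-0 and 1099.2 and 1254.1 in per1, a difference of -0.73 ± 0.11. AT3G26720, an alpha-mannosidase, stood at -0.76 ± 0.13. Each of these genes had both per1 arrays under both Col-0 arrays, as the rule that chose them requires.

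The other lower genes that did not pass were 9 in number. SCPL27, another serine carboxypeptidase-like gene, read 549.9 and 558.9 in Col-0 and 307.7 and 337.0 in per1, a difference of -0.75 ± 0.14. AT5G48430, an aspartyl protease-like gene, stood at -1.18 ± 0.21, with differences of -0.77 and -1.58 between arrays of replicate number 1 and of number 2. AT5G60460, a Sec61 beta subunit of the channel into the endoplasmic reticulum, stood at -0.55 ± 0.10. AT4G38350, similar to the sterol transporter NPC1 of animals, stood at -0.92 ± 0.17, and the PLAC8-family gene AT4G23470 at -0.64 ± 0.12. AT2G21195 at -1.14 ± 0.16, AT1G67910 at -0.99 ± 0.18, the AIG2-like gene AT3G28950 at -0.85 ± 0.12 and the methyltransferase-like gene AT3G60910 at -0.64 ± 0.11 were the others.

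Most of these 30 genes had the same direction in Pi-free medium, with smaller values. All 15 higher genes were above 0 there without overlap, and 13 of the 15 had a smaller difference than in control medium. Of the 15 lower genes 14 were below 0 there, 12 of them without overlap, and all 15 had a smaller size. Over all probesets 50.5% were above 0 there and 49.5% below, with 20.5% higher and 19.8% lower without overlap. Among probesets above the median signal, 23.2% were higher and 22.0% lower without overlap there. The genes were ranked on control medium, so a smaller value in the other medium is set by the choice in part. The p used for the ranking also drew on the spread of the Pi-free arrays, so the lack of overlap there is not independent of the choice. AT1G30760 stood at 0.83 and AT5G57580 at 0.22 in Pi-free medium. GH9B13 stood at 0.21 there, with signals of 2479.6 and 2015.4 in Col-0 and 2672.0 and 2521.2 in per1, and its change between media was 1.02 with a limma adjusted p of 0.65. For 0 of the 30 did the change between media pass the test, and 2 probesets (0.00879%) did among all. The latter count was 0 in limma without per1 Pi-free replicate 1 or 2, where 1009 and 863 had an unadjusted p under 0.05 against 1206 (5.3%) with all arrays. It was 1 without either Col-0 control array, either per1 control array or Col-0 Pi-free replicate 2, and 2 without Col-0 Pi-free replicate 1.

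**Figure D3:**
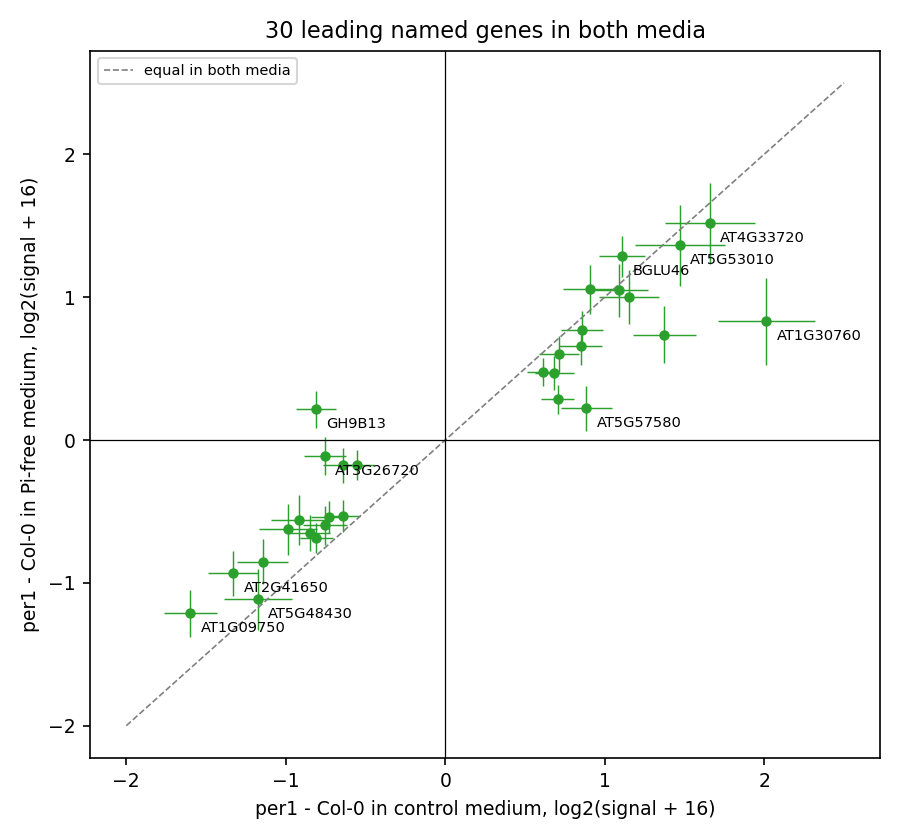
Genotype difference in Pi-free medium (vertical axis) against that in control medium (horizontal axis), both on the log2(signal + 16) scale with SE bars, for the 15 higher and 15 lower named genes. Most points lie below 0 or above 0 in both media, between 0 and the dashed line of equal values, and GH9B13, at -0.81 and 0.21, lies above 0 in Pi-free medium.

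Gene groups were described by lists of genes with no test of the list. Of 46 lists, 35 had at least 3 named probesets. Only the beta-glucosidases, through BGLU46, and the serine carboxypeptidases, through scpl26, had a member past the test. In 20 of the 35 the median lay below 0, and in 2 its size was over 0.3. Cell type marker lists are not among the 35. Over all probesets 47.5% of differences were above 0 and 52.5% below.

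The ubiquitin and proteasome genes are the nearest to the known function of UBP14. Of 6 proteasome subunits 0 passed and 5 had values above 0, 4 of them without overlap, beside 19.1% of all probesets. The median of the 6 was 0.27 (0.14 and 0.32 within the replicate numbers). AT5G45620, known as the lid subunit RPN9, read 1800.3 and 1693.7 in Col-0 and 2141.4 and 2165.4 in per1, a difference of 0.30 ± 0.10. AT5G23540, known as RPN11, the subunit that removes ubiquitin from substrates, read 3411.1 and 3323.8 in Col-0 and 3831.4 and 4534.5 in per1, a difference of 0.31 ± 0.11. The lid subunits RPN12a at 0.25 and AT4G24820, known as RPN7, at 0.28 also did not overlap, while the ATPase AT1G45000 at 0.09 and the base subunit AT2G32730 at -0.01 did. In Pi-free medium the median of the 6 was 0.11 with 2 higher without overlap, beside 20.5% of all probesets there.

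The 12 other ubiquitin-specific proteases measured had a median of 0.13, with 9 above 0 and 0 past the test. UBP19 read 441.9 and 480.7 in Col-0 and 637.2 and 533.5 in per1, a difference of 0.33 ± 0.14. UBP26, which acts on histone H2B, stood at 0.28 and UBP27 at 0.26, both without overlap. UBP21 stood at -0.54 with signals of 348.8 and 413.7 in Col-0 and 354.7 and 185.4 in per1, so its value came from per1 replicate 2. Conjugating enzymes hand ubiquitin to ligases. The 13 members of the list of ubiquitins, activating and conjugating enzymes had a median of -0.08. Of them 5 were higher and 6 lower without overlap, beside 19.1% and 22.3% of all probesets. UBC28 among them read 5614.4 and 5442.5 in Col-0 and 4821.7 and 4785.5 in per1, a difference of -0.20.

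Of the 35 lists, that of nuclear photosynthesis genes had the lowest median. All 9 were lower in per1 without overlap, beside 22.3% of all probesets, and 0 of the 9 passed the test. Their median was -0.62 (-0.61 and -0.64 within the replicate numbers). Only 2 of the 9 were above the median signal of all probesets, so most of these values came from dim probesets. RCA, which encodes rubisco activase, read 274.7 and 324.7 in Col-0 and 149.9 and 189.7 in per1, a difference of -0.77 ± 0.19 with a limma adjusted p of 0.23. LHCB4.1, a minor antenna protein of photosystem II, read 247.6 and 296.6 in Col-0 and 141.6 and 152.2 in per1, a difference of -0.82 ± 0.21. The summed signal of the 9 was 1306.5 and 1643.0 in Col-0 and 819.5 and 940.1 in per1, so the groups did not overlap.

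Among the other photosynthesis genes, the photosystem II subunit genes PSBW and PSBY stood at -0.79 and -0.51, and the photosystem I subunit gene PSAN at -0.47. PRK and SBPASE, enzymes of the Calvin cycle, stood at -0.78 and -0.54, and the antenna genes LHCB4.2 and LHCB4.3 at -0.62 and -0.30. In Pi-free medium 7 of the 9 were below 0, 6 of them without overlap, beside 19.8% of all probesets there. The median of the 9 was -0.42, and PSBW and PRK stood at 0.06 and 0.12.

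Markers of green shoot tissue went with this list, since 4 of the 18 had a named probeset and all 4, RCA, LHCB4.1, PRK and PSAN, belong to it. Their summed signal was 699.1 and 808.0 in Col-0 and 398.7 and 460.0 in per1. All 4 were lower in per1 without overlap, beside 22.3% of all probesets, and 0 passed the test. The median difference of these 4 was -0.77, below that of any of the 35 lists, and only 1 of the 4 was above the median signal. The part of green tissue in the result was not tested. In bulk roots, fewer cells of a type and less RNA per cell cannot be told apart. The 69 plastid-encoded genes did not go the same way, with a median of 0.15 (0.26 and -0.08 within the replicate numbers) and 0 past the test. Of the 69, 11 were higher and 7 lower without overlap, beside 19.1% and 22.3% of all probesets. Among them rpoA, a subunit of the plastid RNA polymerase, read 4808.7 and 4489.0 in Col-0 and 2813.6 and 2874.3 in per1, a difference of -0.71 ± 0.18, while rpoC2 stood at 0.62. The NADH dehydrogenase-like subunit gene ndhH read 11.7 and 27.6 in Col-0 and 58.0 and 68.6 in per1, a difference of 1.19 ± 0.33. A second subunit gene of that complex, ndhJ, read 52.6 and 55.1 in Col-0 and 86.8 and 179.8 in per1, a difference of 1.02 ± 0.39. Both were without overlap.

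Extensins, the hydroxyproline-rich structural proteins of the wall, had the second lowest median. All 10 were below 0, 5 of them without overlap, beside 22.3% of all probesets. Their median was -0.45 (-0.39 and -0.65 within the replicate numbers), with 0 past the test. AT4G08410 read 2262.1 and 2833.6 in Col-0 and 1526.4 and 1680.1 in per1, a difference of -0.66 ± 0.14 with a limma adjusted p of 0.17. AT1G23720 read 4756.8 and 7265.1 in Col-0 and 3623.4 and 3266.2 in per1, a difference of -0.77 ± 0.21. HRGP1 read 7577.3 and 8833.3 in Col-0 and 5775.2 and 5604.9 in per1, a difference of -0.52 ± 0.19.

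These 3 extensin probesets and that of AT5G06630, at -0.35, are of the kind that can bind transcripts of related genes, so their values are not independent of each other. AT3G54580 stood at -0.65 and AT2G43150 at -0.51, both without overlap. AT1G26250 stood at -0.06 and AT5G19810 at -0.09. In Pi-free medium the median was -0.60 with 8 of 10 below 0. AT1G26250 was among the others, with signals of 1147.0 and 1341.4 in Col-0 and 2380.0 and 3008.8 in per1 there.

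**Figure D4:**
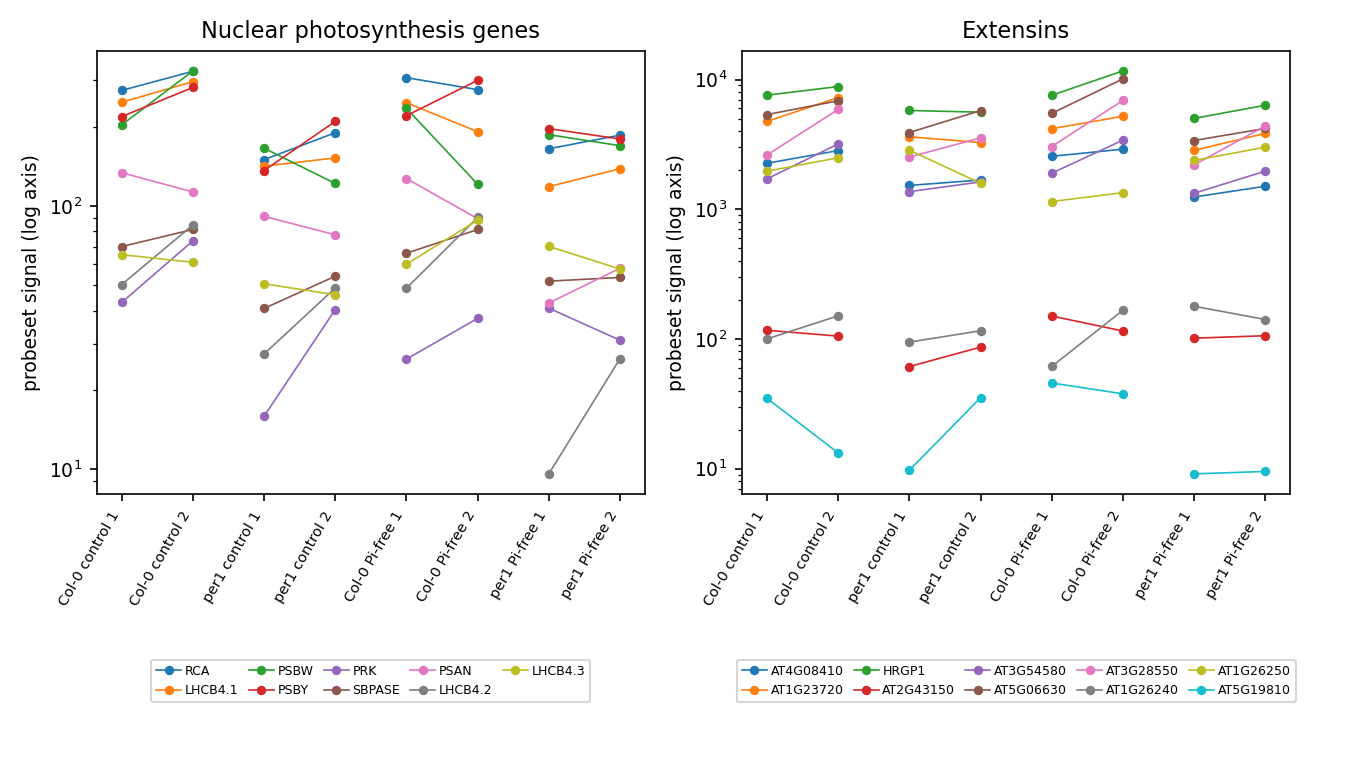
Probeset signal on a log axis on each of the 8 arrays for the 9 nuclear photosynthesis genes (left) and the 10 extensins (right), with a line joining the 2 arrays of a group. In control medium all 9 photosynthesis genes have both per1 points under both Col-0 points, and 5 of the 10 extensins do.

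The root hair genes had a median of -0.11 in control medium (-0.28 and -0.06 within the replicate numbers), beside -0.02 over all probesets, and 0 passed the test. Of 11, 6 were below 0 and 5 above, and 6 were lower and 1 higher without overlap, beside 22.3% and 19.1% of all probesets. The extensins AT4G08410 and AT3G54580 belong to this list too. XTH26, a xyloglucan-modifying enzyme of root hairs, read 204.4 and 105.6 in Col-0 and 66.2 and 50.8 in per1, a difference of -1.14 ± 0.37 with a limma adjusted p of 0.36.

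The other members of the list stood between -0.29 and 0.24. EXPA18, a root hair expansin, read 1271.5 and 1159.6 in Col-0 and 1029.6 and 1030.6 in per1, a difference of -0.23. EXPA7, a second root hair expansin, and the peroxidase AT4G26010 stood at 0.02 each, with overlapping arrays. The pectin methylesterase gene AT5G04960 stood at -0.29, SCN1, which confines hair growth to 1 site on the cell, at -0.11, and the endoglucanase GH9C1 at 0.05. The peroxidases AT1G34510 and AT1G30870 stood at 0.24 and 0.17. In Pi-free medium all 11 were below 0, 7 of them without overlap, beside 19.8% of all probesets there, with a median of -0.52. XTH26 stood at -1.85 there and EXPA18 at -0.71. The median of the changes between media was -0.33, and this was not tested.

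Other families of the cell wall had medians near 0 and 0 members past the test. The 19 expansins, which loosen the wall, had a median of 0.05. EXPA15 among them read 2532.8 and 2459.9 in Col-0 and 1718.7 and 1825.4 in per1, a difference of -0.49 ± 0.10 with a limma adjusted p of 0.16. The 10 xyloglucan hydrolases had a median of 0.01, with XTH18 at 0.43 and XTH16 at 0.37. XTH29 read 5.4 and 6.4 in Col-0 and 28.8 and 39.3 in per1, a difference of 1.18 ± 0.40 without overlap between low signals. The 23 cellulose-synthesis and cellulase genes had a median of -0.01, with CSLC04 at 0.41 and CSLC12 at -0.42. GH9B11, another endoglucanase, read 2.4 and 1.7 in Col-0 and 26.5 and 33.5 in per1, a difference of 1.35 ± 0.35 without overlap, and stood at 0.00 in Pi-free medium.

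The 55 class III peroxidases, which use hydrogen peroxide to cross-link the wall or to loosen it, had a median of 0.02. Of them 11 were higher and 6 lower without overlap, beside 19.1% and 22.3% of all probesets. AT2G39040 read 378.5 and 334.5 in Col-0 and 228.2 and 200.4 in per1, a difference of -0.69 ± 0.17. AT5G19890 read 525.6 and 353.8 in Col-0 and 905.1 and 656.1 in per1, a difference of 0.81 ± 0.21. AT5G15180 stood at -0.53 and AT4G30170, with signals of 5623.5 to 8342.4, at -0.35. AT5G58400 read 35.8 and 24.6 in Col-0 and 9.1 and 4.1 in per1, a difference of -1.03 ± 0.37 without overlap.

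The family of scpl26, the serine carboxypeptidases, held more lower than higher members. Of 29, 20 were below 0, 13 of them without overlap, and 2 were higher without overlap. Over all probesets 52.5% were below 0, with 22.3% lower and 19.1% higher without overlap. The median of the 29 was -0.15 (-0.08 and -0.24 within the replicate numbers). Besides scpl26 and SCPL27, scpl50 read 347.4 and 343.8 in Col-0 and 272.7 and 266.6 in per1, and scpl20 stood at -0.38. On the other side scpl48 read 1059.6 and 1094.3 in Col-0 and 1317.4 and 1466.3 in per1, a difference of 0.36.

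The family of BGLU46, the beta-glucosidases, had a median of -0.16 over 22 members. Of them 5 were higher and 4 lower without overlap, beside 19.1% and 22.3% of all probesets. BGLU25 read 1021.5 and 1036.8 in Col-0 and 1440.5 and 1617.1 in per1, a difference of 0.56 ± 0.11 with a limma adjusted p of 0.15, and stood at -0.60 in Pi-free medium. BGLU44 read 202.5 and 188.1 in Col-0 and 87.8 and 112.6 in per1, a difference of -0.87 ± 0.21. Of the close relatives of BGLU46, BGLU45 stood at -0.48 and BGLU47 at -0.84, with signals of 78.1 or less and overlapping arrays.

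Of the families that modify small molecules, 3 had medians below 0, and 0 of their members passed the test. Of 24 cytochrome P450s 19 were below 0, 10 of them without overlap, with a median of -0.15. Over all probesets 52.5% were below 0 and 22.3% were lower without overlap. Only 4 of the 24 were above the median signal, and CYP84A4 stood at -0.89 with signals of 122.2 or less. CYP71B28 stood at -0.82 and CYP718 at -0.69. CYP71B25 read 7.4 and 3.9 in Col-0 and 36.8 and 27.4 in per1, all low, with a difference of 1.15 ± 0.39 and no overlap. The 51 UDP-glycosyltransferases, which attach sugars, had a median of -0.09. Of them 8 were higher and 15 lower without overlap, beside 19.1% and 22.3% of all probesets. UGT72B3 stood at -0.72, UGT88A1 at -0.71 and UGT85A7 at 0.71. UGT76E12 read 1.4 and 4.8 in Col-0 and 10.8 and 41.5 in per1, a difference of 1.05 ± 0.40 without overlap. The 13 glutathione transferases had a median of -0.26 with 10 below 0. GSTL3 read 251.3 and 345.0 in Col-0 and 185.8 and 131.5 in per1, a difference of -0.85 ± 0.23. GSTU25 read 1980.4 and 1939.0 in Col-0 and 2840.7 and 2628.4 in per1, a difference of 0.48 ± 0.15. GSTU16 read 76.3 and 116.3 in Col-0 and 74.7 and 16.2 in per1, a difference of -1.03 ± 0.44 in which per1 replicate 1 lay close to Col-0 replicate 1, and GSTU27 stood at -0.24. The 5 glutaredoxins, which reduce disulfides with glutathione, had a median of 0.20 and 0 past the test. Of them 4 were above 0, 2 without overlap, beside 47.5% and 19.1% of all probesets. GRXC1 stood at 0.58 ± 0.14 and ROXY1 at 0.73.

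Defence and glucosinolate genes had values on both sides of 0, and 0 of them passed. The 14 pathogenesis-related genes had a median of -0.18, with 10 below 0 and 4 above. Without overlap 4 were higher and 4 lower, beside 19.1% and 22.3% of all probesets. OSM34 among them, an osmotin, read 1102.5 and 1282.0 in Col-0 and 1714.3 and 1719.3 in per1, a difference of 0.52 ± 0.16. The defensin gene PDF1.4 stood at -1.34 ± 0.29 with signals of 79.0 or less. BCAT4, the aminotransferase that opens the chain elongation of methionine-derived glucosinolates, read 4414.5 and 2976.2 in Col-0 and 5444.4 and 5292.6 in per1, a difference of 0.56 ± 0.16. The glucosinolate transporter genes GTR2 and GTR1 stood at 0.34 and -0.18.

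Genes of iron handling are given because of the conflicting descriptions. Of 8, 0 passed, and the median was -0.09 with 2 higher and 3 lower without overlap, beside 19.1% and 22.3% of all probesets. AT3G13610, the F6'H1 enzyme that makes iron-mobilising coumarins, read 3381.2 and 3612.9 in Col-0 and 2882.0 and 1955.9 in per1, a difference of -0.55 ± 0.20. The metal transporter gene NRAMP5 read 49.8 and 51.4 in Col-0 and 4.7 and 20.1 in per1, a difference of -1.28 ± 0.56 without overlap, and ZIP9 stood at 0.29. BHLH101, a transcription factor known to be induced by iron shortage, read 2.0 and 35.2 in Col-0 and 2.8 and 3.1 in per1. In Pi-free medium it read 2.0 and 27.1 in Col-0 and 29.3 and 3.2 in per1, so readings of this height occurred in both genotypes and both replicate numbers, all of them low. The 3 arrays that read 27.1 to 35.2 are the 3 of the 8 whose description speaks of iron deficiency, and the other 5, described as iron efficiency, read 2.0 to 3.2. This match was seen after the values were examined, and the part of the iron supply in the results was not tested. Readings of 3 other genes of the list overlapped between these 3 arrays and the other 5. ZIP9 read 63.4 to 163.4 on the 3 and 70.2 to 155.1 on the 5. NRAMP5 read 12.6 to 66.7 and 4.7 to 49.8, and AT3G13610 3066.5 to 4033.0 and 1955.9 to 3830.1. Without Col-0 control replicate 2, the BHLH101 difference of -0.68 in control medium became 0.07. PYE, another factor of the iron response, read 196.0 and 214.9 in Col-0 and 242.0 and 216.5 in per1.

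Hormone and reference genes had medians on both sides of 0. The 16 auxin genes had a median of 0.07 and the 6 cytokinin genes one of -0.15, with 0 past the test in either list. The auxin synthesis gene YUC11 stood at 0.75 with signals of 33.4 or less, and the auxin-conjugating genes GH3.1 and WES1 at 0.69 and 0.25. The 10 reference genes, tubulins and others often used as constant controls, had a median of 0.06, and TUA6 stood at 0.28. Of the cell cycle genes, PRL, the replication factor MCM7, read 956.8 and 790.9 in Col-0 and 1168.0 and 1258.5 in per1, a difference of 0.47 ± 0.12 with a limma adjusted p of 0.25.

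**Figure D5:**
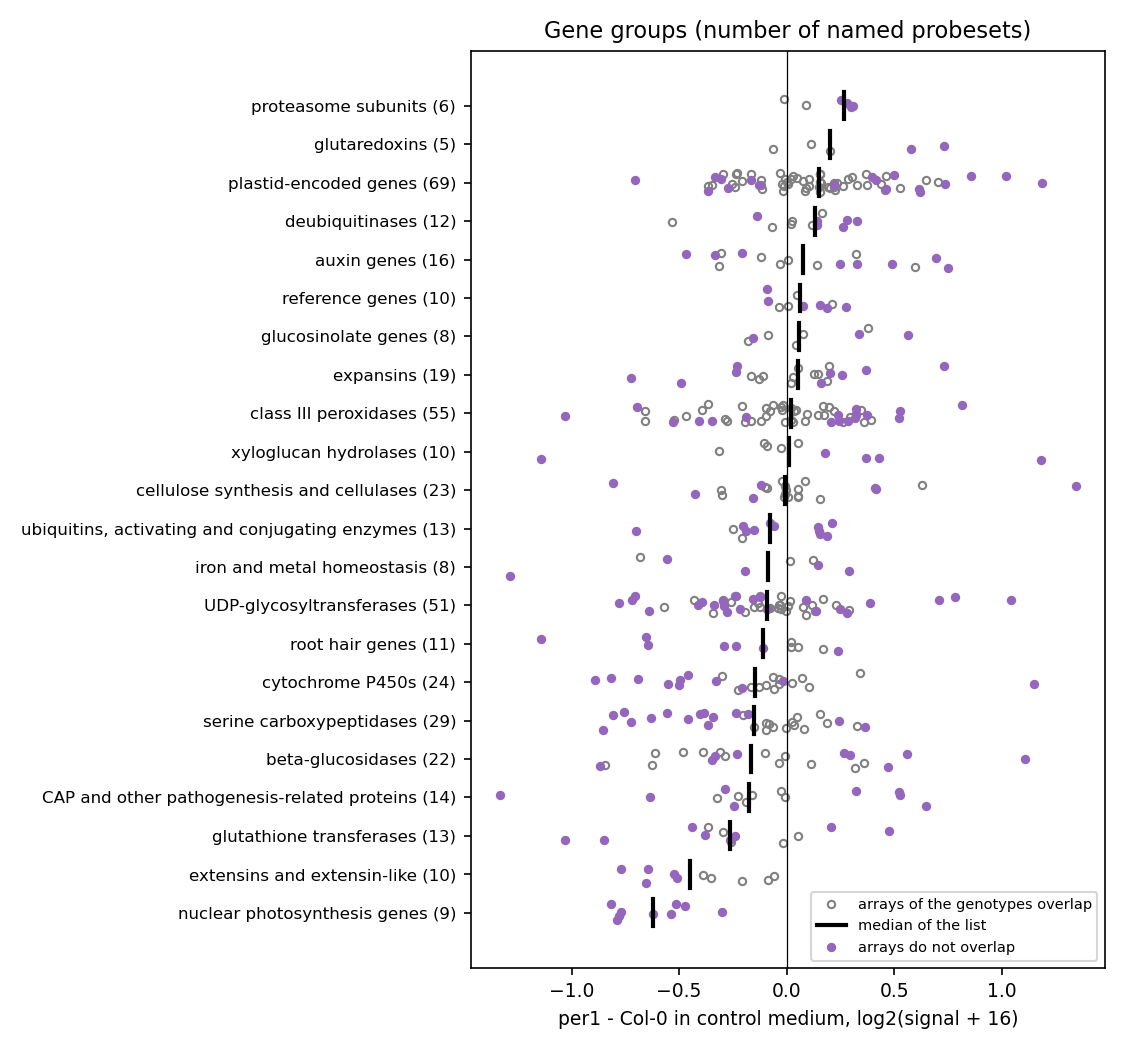
Difference between per1 and Col-0 in control medium on the log2(signal + 16) scale for each named member of 22 gene lists, with filled points where the arrays of the genotypes do not overlap and a black line at the median of each list. The nuclear photosynthesis genes (median -0.62) and extensins (-0.45) lie at the bottom, and the proteasome subunits (0.27) at the top.

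Over all brighter probesets the genotype difference was partly shared between media. Among the 11373 above the median signal, 62.1% had the same sign in both, and the Pearson correlation between the differences was 0.44 across probesets, which share plants, arrays and the scaling and are not independent replicates. Of 2623 higher in control medium without overlap, 38.7% were also higher without overlap in Pi-free medium, against 23.2% of all brighter probesets. Of 2468 lower ones, 39.8% were also lower, against 22.0%. Both comparisons use separate arrays. They share the genotypes and the pooled estimate of the spread.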

How the data were processed

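RNA from roots was hybridised to 8 ATH1 arrays in 4 groups of 2. The authors deposited linear probeset intensity values, 1 column per array, which had a 2% trimmed mean of 500 on each array. The summarisation software, background step and any detection calls are not stated in the labels or headers used here. Array medians were 186.2 to 197.1, and 14.2% to 15.9% of probesets were at or under 16. The number of arrays limits the precision, and p-values measure the spread between these arrays.

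Of 22810 probesets 64 controls were left out. By GEO's platform annotation 13513 probesets had 1 gene, 503 several and 8730 none. Loci of TAIR10.1 were found for 13436 of the first kind, and only names and chromosomes were taken from there. Probesets with several genes or none are unnamed here.

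Values were taken as log2(signal + 16), which understates the differences of low signals, with no further normalization. limma 3.58.1 in R 4.3.3 used all 8 arrays with a mean for each of the 4 groups, which left 4 residual degrees of freedom, and an intensity trend in the moderated variances. The groups share 1 spread per probeset, so an SE can be smaller than the spread within 1 group. The fit was tested on simulated data.

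Named genes were all those past the test in control medium, the 15 higher and 15 lower with the smallest p among probesets above the median signal whose arrays do not overlap, and up to 4 members of each list with the smallest p, besides members over 1 in size without overlap. Values are printed for only some of the members with the smallest p, mainly in lists that the text describes singly. Other members are named where a list is small enough to be given whole or stands close to a named gene, and were chosen after their values were seen. The members and lists were chosen with earlier results of these data known. For class III peroxidases, proteasome subunits and extensins loci were added, and plastid genes were matched by chromosome, after the annotation was read. After their values had been seen, 6 symbol matches with 7 probesets were removed from 5 lists, because those symbols name other genes.

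The alternatives were pseudocounts of 1 and 64, limma without the trend, quantile normalization, only probesets above the median signal, the replicate number as a block, only the 4 control-medium arrays, and leaving out each array in turn.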

Additional observations from a re-analysis of the deposited data

Results flagged for a closer look

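The unnamed probeset 267083_at had a genotype difference that itself differed between the media. The change of the difference was -2.66 ± 0.20 on the log2(signal + 16) scale, with a limma adjusted p of 0.0029. In control medium it was higher in per1 by 2.21, and in Pi-free medium the difference was -0.45 with a limma adjusted p of 0.29. Between media its signal was higher without phosphate by 3.92 in Col-0 and by 1.25 in per1, with limma adjusted p of 2.9e-06 and 0.056. The gene behind the probeset is unnamed here.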

How the results depend on the processing

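In control medium 13 probesets passed (5 higher, 8 lower). With log2(signal + 1) there were 20 (9 and 11), among probesets above the median signal 54 (23 and 31), and with the replicate number as a block 42 (18 and 24). limma without the intensity trend gave 0 (0 and 0) with 2062 at an unadjusted p under 0.05, and the 4 control-medium arrays alone, with 2 residual degrees of freedom, gave 0 (0 and 0) with 2333. Leaving out 1 array gave 1 to 14, with 1 to 6 higher and 0 to 8 lower. In Pi-free medium 7 passed, 48 with the block, 0 without the trend (2112 unadjusted) and 0 to 0 without 1 array. The change between media gave 2, 2 with the block, 0 without the trend (1196 unadjusted) and 0 to 2 without 1 array. The replicate numbers are not stated to pair samples. Deviations of same-numbered arrays correlated at 0.15 between the control-medium groups and 0.062 to 0.28 over all pairs of groups. With the block 12 more named genes passed, 11 of them among the leading 30 (AT4G33720, AT5G53010, AT2G41730, AT1G72500, AT1G30760, AT1G67340, AT2G29210, AT2G21195, AT3G28950, TBL36 and GH9B13), and 0 of those past the test were lost. Without the trend, and with 4 arrays, 13 of the probesets past the test no longer passed, and the cause was not tested. No named gene past the test, with all arrays or under an alternative, changed sign. For those past it with all arrays, whose arrays did not overlap, the fits without 1 array could not change the sign. Of 170 named, 19 that did not pass changed sign without 1 control-medium array, with sizes of up to 0.68, among them BHLH101 at 0.074 without Col-0 control replicate 2. Of the list medians, 20 lay below 0, 18 after quantile normalization, 19 and 24 within replicate numbers 1 and 2, and 19 with the removed symbol matches kept, an alternative chosen after seeing the data. With its removed match the root hair median was -0.07. The 2 phosphate genes left in their list were too few to describe. Dim probesets limit what could be measured, since no detection calls were used.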

Other observations

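Some lower genes in control medium were neighbours on chromosome 4, by the order of their locus identifiers. AT4G12490 and AT4G12500, related genes of the lipid-transfer-like family, stood at -1.08 and -1.45, and in Pi-free medium at -0.95 and -1.62. AT4G23670 and AT4G23680, related genes of the major latex protein family, stood at -0.77 and -0.80, and at -0.55 and -1.09 in Pi-free medium. None of these 4 passed the test, with limma adjusted p of 0.25, 0.16, 0.15 and 0.39, and related neighbours can share signal between their probesets.

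Among named genes of the 5 nuclear chromosomes, the share at an unadjusted p under 0.05 was 9.07% on chromosome 1, 9.32% on chromosome 2, 9.80% on chromosome 3, 10.4% on chromosome 4 and 9.31% on chromosome 5.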
